A study of Mus musculus with 24 samples.

Results

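Rpl3 and Rpl3l are the 2 genes described here, of 55416 Ensembl genes counted in mouse gastrocnemius muscle and of 16408 that had enough reads to be tested. Rpl3 (ENSMUSG00000060036, chromosome 15) encodes the ribosomal protein uL3 of the large, or 60S, subunit. Rpl3l (ENSMUSG00000002500, chromosome 17) encodes the muscle form of the same protein. The pair was chosen from its measured levels, its ratio and its relation from library to library in these same 24 libraries. Its levels by group, ratio and relation are therefore given as a description, with no test, and its FDRs in the contrasts of treatment and sex come from a fit of all genes.

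uL3 lies close to the peptidyl transferase centre, where the ribosome joins amino acids, and each ribosome carries a single copy. Most tissues make it from Rpl3, while heart and skeletal muscle fibres also express Rpl3l, whose product takes the same place in the ribosome. In muscle made to grow, Rpl3 is known to rise and Rpl3l to fall, so the pair is often read as a muscle-specific difference in ribosome make-up.

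The 24 mice formed 4 groups of 6, sham and SMC in each sex. The strain is labelled C56BL6J, no other allele or agent is labelled in any group, and the study bought C57BL/6J mice at 8 weeks of age. SMC mice lived for 8 weeks in a small mouse cage, a low box that restricts movement, and sham mice stayed ambulatory. Each library held total RNA of a single mouse after removal of ribosomal RNA, and libraries are numbered from 1 to 24 as in their titles.

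The 24 libraries held 23026627 to 36880413 counted reads, and the 10 most counted genes took 26.7% to 41.9% of them. All 8 skeletal muscle fibre markers passed the filter and together reached 147100 to 389500 counts per 1000000 reads (CPM). Of 4 heart markers 1 passed, their sum stayed between 0.166 and 10.9 CPM, and Myl7 was at 0 in every library, so Rpl3l, which the heart also makes, was read here in skeletal muscle. Male sham 4 and female sham 7 stood apart with low slow fibre genes (mean log2 CPM of 1.42 and 1.22, against at least 5.09 in the others), and results for the pair are also given without them.

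The proteins of Rpl3 and Rpl3l, of 403 and 407 residues, were identical at 310 of 402 aligned residues, or 77.1%. Identity was 82.1% in the first part of the alignment when it is split into 3 equal parts, 75.4% in the middle and 73.9% in the last. The coding sequences, of 1209 and 1221 bases without the stop codon, were identical at 889 of 1206 aligned bases (73.7%), and each is spread over 10 exons. The longest run of identical coding bases was 22, so a sequenced fragment of ordinary length holds bases that tell the genes apart.

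The stretches in which the genes are least and most alike show coding bases by which reads could be told apart. The reads themselves were not examined. Of 365 windows of 90 coding bases, the least alike was at coding bases 856 to 945, in exon 7 of both genes, with 34 differing bases and 62.2% identity. Capitals mark the bases that differ between the genes, and the sequences come from GENCODE transcripts of the GRCm38 build.
Rpl3: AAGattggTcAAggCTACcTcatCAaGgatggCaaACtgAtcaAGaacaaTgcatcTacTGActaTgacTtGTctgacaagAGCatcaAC
Rpl3l: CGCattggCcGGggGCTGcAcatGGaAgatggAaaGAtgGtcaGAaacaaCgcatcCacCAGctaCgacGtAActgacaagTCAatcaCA

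The most alike window was at coding bases 685 to 774, across exons 5 and 6, where 74 of the 90 bases were identical (82.2%) and 16 differed. Even here the differing bases are spread along the window.
Rpl3: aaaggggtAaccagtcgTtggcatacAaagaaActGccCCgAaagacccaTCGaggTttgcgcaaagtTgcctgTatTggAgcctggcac
Rpl3l: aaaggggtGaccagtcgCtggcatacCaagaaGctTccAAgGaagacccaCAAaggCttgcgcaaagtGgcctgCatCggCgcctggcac

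Rpl3l was the main form in this muscle. Per length of the coding transcript, Rpl3l had 204.0 ± 15.4 CPM per kilobase (RPKM; SD, n = 24) and Rpl3 had 20.4 ± 3.66. The per-length level of Rpl3l thus exceeded that of Rpl3 by 10.3-fold on average, with a range of 5.84 to 13.6 over the 24 libraries. The factor depends on the length used. By the union of annotated exons the ratio was 20.3 (range 11.5 to 26.8). The union of Rpl3 is 3175 bases long and includes retained introns of 3 of its 7 annotated transcripts, while the union of Rpl3l is 1643 bases.

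Set beside the other 46 large-subunit protein genes, the pair took opposite ends of the scale. By coding transcript length, only Rplp0 (267.2 RPKM) and Rplp1 (209.8 RPKM), both proteins of the ribosomal stalk, lay above Rpl3l. Rpl3 lay below 44 of the 46, with only Rpl13a (18.5 RPKM) and Rpl22 (17.6 RPKM) under it, and the median of the 46 was 71.8 RPKM. By the union of exons all 46 lay above Rpl3 (8.70 RPKM) and 2 above Rpl3l (170.8 RPKM). Many ribosomal protein genes have processed pseudogenes that can take their reads, so the levels of these genes are uncertain.

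**Figure D1:**
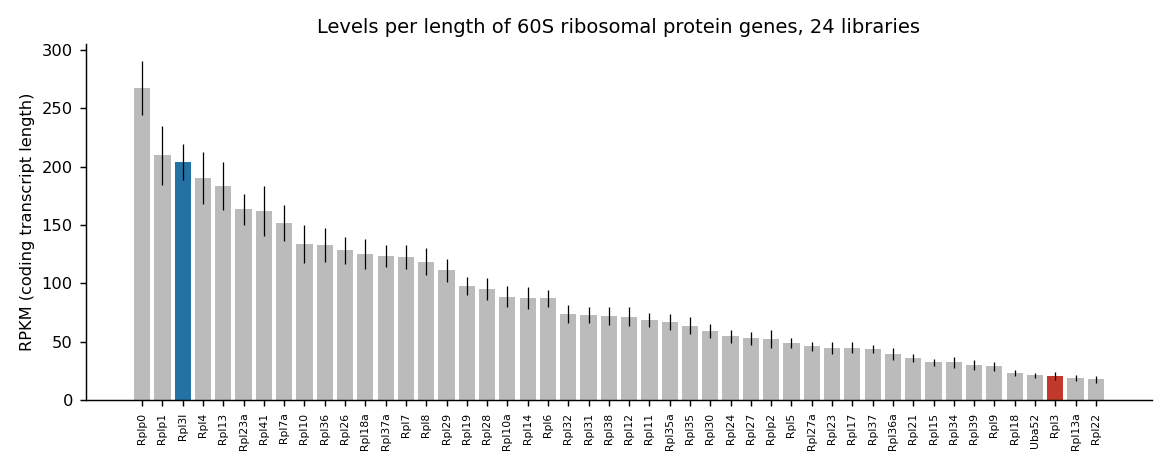
Mean level of each 60S ribosomal protein gene and of Rpl3l in RPKM by coding transcript length (bars, with the SD over 24 libraries as lines). Rpl3l (blue, 204.0 RPKM) is the third bar from the left and Rpl3 (red, 20.4 RPKM) lies above only Rpl13a and Rpl22 at the right end.

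Rpl3 was counted with 508 to 1324 reads per library and Rpl3l with 5623 to 9767. Counting error alone was 2.75% to 4.44% of an Rpl3 value and 1.01% to 1.33% of an Rpl3l value. The spread over the 24 libraries was wider than that for both genes, with a coefficient of variation of 17.9% for Rpl3 and 7.56% for Rpl3l in CPM on TMM library sizes, a scaling that sets most genes level between libraries. Rpl3 was thus both the lower and the more variable member of the pair.

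Rpl3 in male sham mice had a lowest value of 25.0 CPM, a median of 28.5 and a highest value of 34.8 (mean 29.2 ± 4.11, SD, n = 6). In male SMC mice the lowest, median and highest values were 21.6, 25.6 and 27.1 CPM (mean 25.0 ± 1.94). All 6 male SMC libraries lay below the sham median and 2 of them below every sham library, so the groups overlapped.

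In female sham mice Rpl3 ranged from 24.8 to 39.95 CPM with a median of 29.5 (mean 31.7 ± 6.43). In female SMC mice it ranged from 20.7 to 29.5 CPM with a median of 24.04 (mean 24.6 ± 2.86). All 6 female SMC libraries lay below the sham median and 4 of them below every sham library. The highest 2 values of the study, 39.95 and 39.0 CPM, were in female sham 8 and female sham 11.

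Rpl3l in male sham mice ranged from 256.5 to 307.0 CPM with a median of 271.6 (mean 273.6 ± 17.95). In male SMC mice it ranged from 260.9 to 319.9 CPM with a median of 300.5 (mean 297.4 ± 20.1). Of the male SMC libraries 5 lay above the sham median and 2 above every sham library.

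In female sham mice Rpl3l ranged from 231.8 to 296.4 CPM with a median of 275.4 (mean 271.8 ± 26.2), and female sham 11, with 231.8 CPM, held the lowest value of the study. In female SMC mice it ranged from 263.0 to 291.4 CPM with a median of 285.1 (mean 279.4 ± 12.8). Here 4 of 6 SMC libraries lay above the sham median and 0 above every sham library.

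Ordered by mean level, Rpl3 went from female sham through male sham and male SMC to female SMC. Only the step of 4.18 CPM from male sham to male SMC was larger than both SDs, and the step between the sham groups (2.47 CPM) and that between the SMC groups (0.468 CPM) lay within the smaller SD. Rpl3l went from male SMC through female SMC and male sham to female sham, and no step between neighbours exceeded both SDs.

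**Figure D2:**
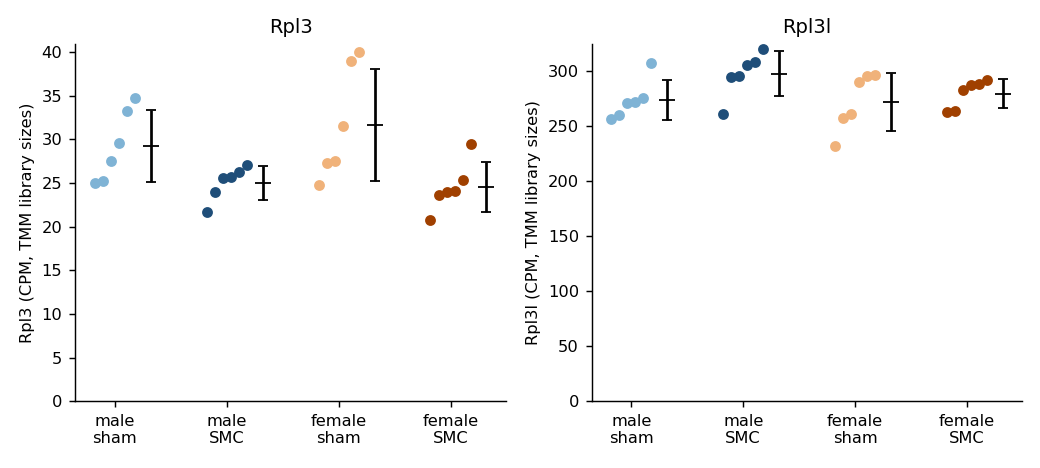
Rpl3 (left) and Rpl3l (right) in CPM on TMM library sizes, 1 point per mouse in the 4 groups, with the mean and SD of each group as the line to its right. Rpl3 of all 6 SMC mice lies below the sham median in both sexes, and Rpl3l overlaps between all groups.

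SMC was compared with sham in all genes at once, with edgeR's quasi-likelihood test and Benjamini-Hochberg adjustment over 16408 genes, to ask what inactivity changed in each sex and whether the sexes differed. The adjusted p (FDR) of each member comes from this fit of all genes. The pair was picked with results of these same libraries known, so these FDRs are not independent evidence. Nothing in the labels names separate litters or cages, and in whole muscle fewer cells of a type and less RNA per cell cannot be told apart.

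Averaged over the sexes, Rpl3 fell by 0.30 on the log2 scale with SMC (SE 0.0797, FDR 0.0480, edgeR), a level 0.814 times that of sham. It was 1 of 388 genes past the threshold, or 2.36% of genes tested, 169 of them higher and 219 lower. The call stood close to the threshold. DESeq2 gave an FDR of 0.0154 and limma voom with library weights 0.0320, but leaving out 1 of the 24 libraries in turn took the edgeR FDR past 0.05 in 17 cases, with FDRs of 0.0219 to 0.0787 and log2 changes of -0.33 to -0.26. The call held only without male sham 3 or 5, female sham 7, 9 or 12, male SMC 13 or female SMC 21, and the direction held in each of those fits.

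Within each sex the difference in Rpl3 did not pass the threshold. In females the log2 change of Rpl3 was -0.37 (SE 0.113, FDR 0.134, edgeR), in a contrast where 56 genes, or 0.341%, passed. In males it was -0.22 (SE 0.113, FDR 0.479, edgeR). In the male contrast edgeR called 0 genes, or 0% of those tested, against 1805 at an unadjusted p under 0.05, 133 by DESeq2 and 93 by voom. DESeq2 and voom gave FDRs of 0.0783 and 0.166 for Rpl3 in females, and of 0.405 and 0.271 in males.

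The difference in the Rpl3 response between males and females was 0.15 on the log2 scale (SE 0.159, FDR 0.997, edgeR), close to 1 SE. For this interaction edgeR called 0 genes, or 0%, with 841 at an unadjusted p under 0.05, 1 by DESeq2 and 0 by voom. Between the sham sexes Rpl3 did not pass the FDR, with a log2 difference of -0.12 for males against females (SE 0.112, FDR 0.648), in a contrast where 324 genes, or 1.97%, passed.

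Rpl3l did not pass the threshold in any of these contrasts. Its log2 difference with SMC was 0.12 in males (SE 0.0697, FDR 0.548, edgeR), 0.04 in females (SE 0.0697, FDR 0.871) and 0.08 averaged over the sexes (SE 0.0493, FDR 0.419). The male and female responses differed by 0.08 (SE 0.0985, FDR 0.997), and sham males and sham females by 0.01 (SE 0.0697, FDR 0.966). Its sign depended on the scaling. With library totals alone, which moved the median of all genes by -0.14 in the averaged contrast, Rpl3l was at -0.01 in males, -0.09 in females and -0.05 on average, below 0 but above that shifted median.

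Without the libraries low in slow fibre genes, male sham 4 and female sham 7, the averaged log2 change of Rpl3 was -0.31 (FDR 0.0289, edgeR), with -0.43 in females (FDR 0.0526) and -0.19 in males (FDR 0.460). That of Rpl3l was then 0.08 on average (FDR 0.387). The number of reads given to Rpl3 could also depend on neighbouring genes. Syngr1, a synaptic vesicle protein gene, overlaps Rpl3 on the opposite strand and had 365 to 695 reads, and the strand setting of the counting was not given in the sources used here. Its mean level was 18.2 CPM in male sham, 19.2 in male SMC, 17.4 in female sham and 16.7 in female SMC, and its part in the Rpl3 counts was not tested.

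The ratio of Rpl3l to Rpl3 reads needs no library scaling, because both genes are read in the same library. Male sham mice had 7.38 to 12.3 Rpl3l reads for each Rpl3 read (median 9.60, mean 9.58 ± 1.84, SD, n = 6). Male SMC mice had 9.96 to 13.7 (median 11.98, mean 11.97 ± 1.41). All 6 male SMC mice lay above the sham median and 2 above every sham mouse.

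Female sham mice had 5.95 to 11.97 Rpl3l reads for each Rpl3 read (median 9.39, mean 8.99 ± 2.48), the widest spread of the 4 groups. Female SMC mice had 8.94 to 13.9 (median 11.98, mean 11.5 ± 1.69). Here 5 of 6 SMC mice lay above the sham median and 3 above every sham mouse. The means were 1.25 times those of sham in males and 1.28 times in females. On the log2 scale the SMC groups were higher by 0.34 in males and 0.40 in females, and by 0.26 to 0.41 and 0.29 to 0.49 when any library of that sex was left out. Without male sham 4 the male value was 0.28, and without female sham 7 the female value was 0.49.

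As a share of the pair by coding transcript length, Rpl3 made up 9.85% ± 1.71 in male sham, 7.92% ± 0.883 in male SMC, 10.7% ± 2.81 in female sham and 8.24% ± 1.18 in female SMC (SD, n = 6 each). The lowest share was 6.84% and the highest 14.6%, so Rpl3l supplied most of the uL3 messages in each of the 24 mice. The summed per-length level of the pair varied less than either gene, with a coefficient of variation of 5.82% on the TMM scale. The sum is weighted by Rpl3l, and its group means were 220.6 RPKM in male sham, 234.8 in male SMC, 221.2 in female sham and 221.4 in female SMC.

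**Figure D3:**
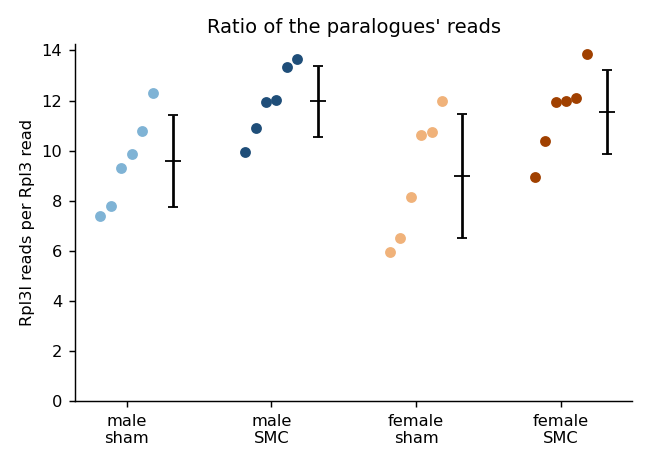
Rpl3l reads for each Rpl3 read in each of the 24 mice by group, with the mean and SD of each group as the line to its right. Group means are 9.58 in male sham, 11.97 in male SMC, 8.99 in female sham and 11.5 in female SMC, and sham and SMC overlap in both sexes.

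From library to library, Rpl3 and Rpl3l moved in opposite directions on TMM library sizes. Pearson's r of their log2 CPM was -0.72 and Spearman's rho -0.64 over 24 libraries. Within groups of 6, r was -0.78 in male sham, -0.27 in male SMC, -0.87 in female sham and -0.73 in female SMC. On deviations from the group means it was -0.73, so it was present within groups as well.

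The sign of this relation rests on the scaling, since with library totals alone r was 0.32 and rho 0.16. By library totals both genes followed the median of all tested genes, with r of 0.86 for Rpl3 and 0.61 for Rpl3l. Both ran against the share of reads in the 10 most counted genes (r of -0.78 and -0.73). On TMM library sizes the genes still followed that median, with opposite signs (r of 0.69 for Rpl3 and -0.49 for Rpl3l). With the log2 TMM factor their r was then 0.67 and -0.44. The points share their library size and TMM factor (0.854 to 1.32), so r over libraries is a description only. The TMM factor was lower with SMC (mean 0.967 against 1.057 in males, 0.949 against 1.045 in females). The share of the 10 most counted genes was higher (37.8% against 33.3%, and 39.0% against 35.7%). In each sex all 6 SMC libraries lay on that side of the sham median for both. The part of this in the Rpl3 difference was not tested. With DESeq2 size factors r was -0.74, without female sham 8 and female sham 11, the libraries farthest from the Rpl3 median, it was -0.61, and without male sham 4 and female sham 7 it was -0.70.

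**Figure D4:**
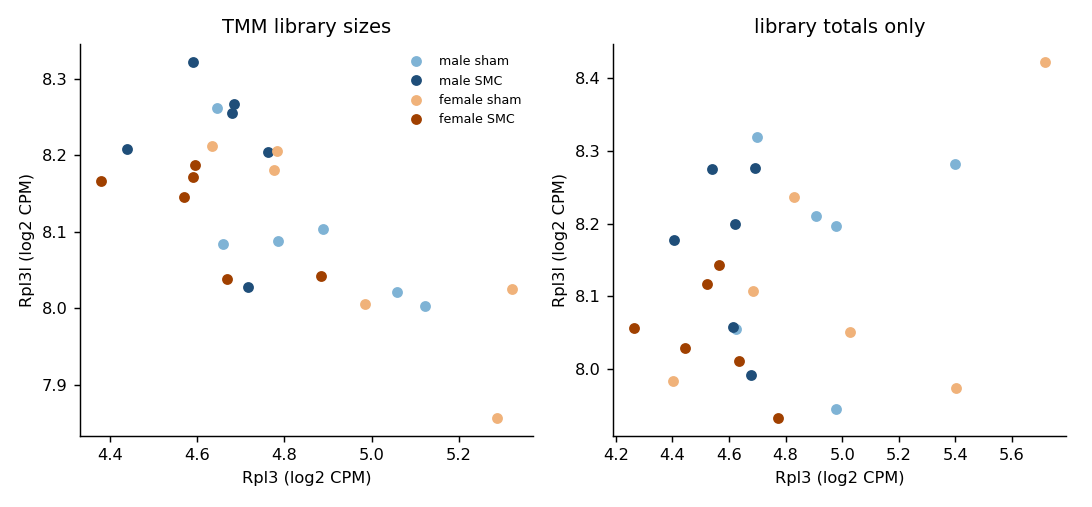
Rpl3 (x axis) against Rpl3l (y axis) in log2 CPM, 1 point per library coloured by group, on TMM library sizes (left) and on library totals alone (right). The 24 points slope down on the left (r of -0.72) and slightly up on the right (r of 0.32), where female sham 8 lies at the top right.

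Likeness to each member over the 24 libraries was ranked by Pearson's r of log2 CPM on TMM library sizes, among 7792 genes with a symbol and a mean log2 CPM of at least 3. The 5 genes most like Rpl3 were Atl3, a membrane GTPase of the endoplasmic reticulum (0.79), Abi1, a regulator of actin assembly (0.78), Itm2b, a membrane protein (0.78), Eef1a1, which brings aminoacyl-tRNA to the ribosome (0.78), and Avl9 (0.76). With library totals alone these 5 had r of 0.89 to 0.92. The most opposite were Ankrd40 (-0.89), Tcea3, a transcription elongation factor (-0.85), and Ston2, an endocytic adaptor (-0.85), and these stayed below 0 with library totals (-0.49, -0.17 and -0.62).

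The 5 genes most like Rpl3l were Ecsit, an assembly factor of mitochondrial complex I (0.85), Stim1, the calcium sensor of the sarcoplasmic reticulum (0.81), Bckdk, the kinase that restrains branched-chain amino acid breakdown (0.80), 2310061I04Rik (0.78) and Gys1, the muscle glycogen synthase (0.78). On library totals they had r of 0.76 to 0.85. The most opposite were Shprh (-0.81), Atl3 (-0.80) and Zfp207 (-0.80), which turned to 0.27, 0.21 and 0.19 with library totals. Atl3 was thus named at the high end for Rpl3 and at the low end for Rpl3l.

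On TMM library sizes, r with the other ribosomal protein genes was mostly positive for Rpl3 and mostly negative for Rpl3l. The median r with the 78 other ribosomal protein genes was 0.47 for Rpl3, with 72 of them above 0, beside -0.05 over all genes compared. The values ran from -0.28 for Rps26 to 0.76 for Rps19, both of the small subunit. For Rpl3l the median was -0.28, with 5 of 78 above 0, beside 0.06 over all genes. With library totals alone, where all genes shift together, the medians were 0.80 for Rpl3 and 0.42 for Rpl3l, beside 0.50 and 0.40 over all genes, and all 78 were above 0 for both. With the mean log2 CPM of the 78 genes on TMM library sizes, r was 0.57 for Rpl3 and -0.34 for Rpl3l. On deviations from group means these were 0.35 and -0.05, so that of Rpl3l was near 0 within groups.

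Ribosomal protein genes as a group tended to lower levels with SMC, and Rpl3 shared this. Averaged over the sexes, 388 of 16408 genes tested, or 2.36%, passed the FDR, 219 of them lower. Of 47 large-subunit genes, Rpl3 included, 13 fell and 0 rose past the FDR in that contrast. Their median log2 difference was -0.14, beside -0.01 over all genes. The 13 genes included Rpl3. The others were Rpl9, Rpl11, Rpl13a, Rpl14, Rpl24, Rpl34, Rpl35a, Rpl36, Rpl36a, Rpl39, Rplp1 and Rplp2. Of 32 small-subunit genes, 12 fell and 0 rose, with a median of -0.20. Among these were Rps10 (-0.42, FDR 0.00296), Rps21 (-0.41, FDR 0.00531), Rps27a (-0.35, FDR 0.000981) and Rps19 (-0.27, FDR 0.00866). Without male sham 4 and female sham 7, 40 of 47 large-subunit and 30 of 32 small-subunit genes were below 0, with medians of -0.11 and -0.17. By DESeq2 21 large-subunit and 17 small-subunit genes fell past the FDR, beside 778 called of all genes tested.

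Rpl3 stood near the low end of this group by the size of its difference. Among the 47 large-subunit genes its log2 difference ranked the fourth lowest averaged over the sexes, after those of Rplp2 (-0.33, FDR 0.00296), Rpl13a (-0.33, FDR 0.00296) and Rpl39 (-0.30, FDR 0.00866). By p it ranked at place 12 of 47, and its SE of 0.0797 was larger than those of Rplp2 (0.0534) and Rpl13a (0.0522). Its rank from the lowest log2 difference was 2 of 47 in females and 10 of 47 in males.

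In females 56 of 16408 genes tested, or 0.341%, passed the FDR, 36 of them lower. Of the ribosomal protein genes 6 fell, namely Rps21 (-0.57), Rps10 (-0.56), Rplp2 (-0.40), Rpl9 (-0.37), Rpl13a (-0.35) and Rps27a (-0.35). Their edgeR FDRs were 0.0228 to 0.0449. Not all ribosomal protein genes were lower in females, where 13 of 47 large-subunit and 6 of 32 small-subunit genes were above 0, with 0 called higher. The medians there were -0.09 and -0.15, beside -0.01 over all genes. Rpl3, at -0.37, had a difference like that of Rpl9, whose SE of 0.0787 was smaller. For the same contrast DESeq2 called 6 small-subunit and 4 large-subunit genes lower, voom 2 and 1, and edgeR with library totals 4 and 5. Over all genes DESeq2 called 268 and voom 16. In males 0 of 79 passed by edgeR, beside 0 of all genes. Of the 78 genes other than Rpl3, 55 had an unadjusted p under 0.05, beside 1805 of all 16408 genes. DESeq2 called 7 small-subunit and 5 large-subunit genes, beside 133 of all genes, and voom 2 and 3, beside 93. All 47 large-subunit genes had a difference below 0.

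Against the mean of the other 78 ribosomal protein genes, Rpl3 was lower in SMC than in sham by 0.03 on the log2 scale in males and by 0.25 in females. Of the SMC mice 6 of 6 males and 5 of 6 females lay below the sham median of this difference, and 0 males and 1 female lay below every sham mouse. In males, then, Rpl3 differed by about as much as the other ribosomal protein genes did.

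**Figure D5:**
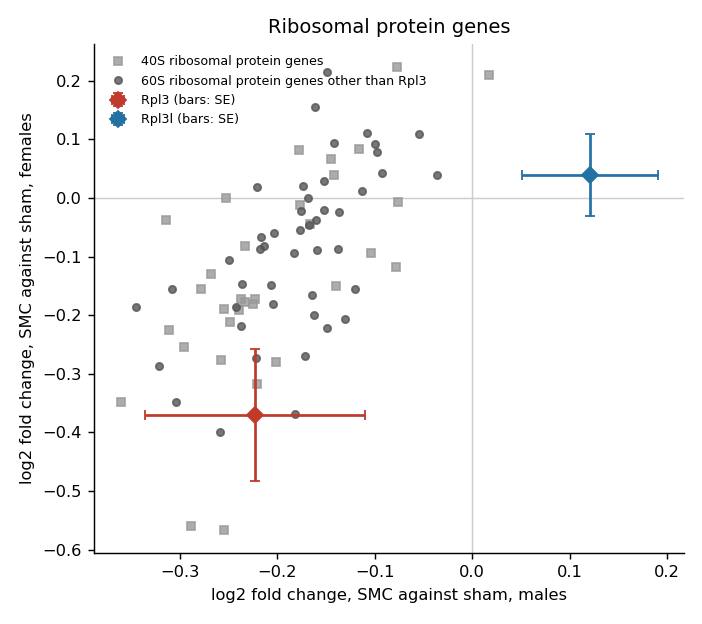
Log2 fold change with SMC in males (x axis) and females (y axis) of 79 ribosomal protein genes and Rpl3l, from edgeR on TMM library sizes. Rpl3 (red, with SE bars) lies with the ribosomal protein genes at -0.22 and -0.37, and Rpl3l (blue) lies apart at 0.12 and 0.04, values that turn to -0.01 and -0.09 with library totals alone.

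Other ribosomal protein paralogues did not share the sign of Rpl3l. Of 8 paralogues listed, 6 had enough reads, and 5 of the 6 were below 0 with SMC in males, in females and on average, Rpl3l being the other, on TMM library sizes. With library totals alone all 6 were below 0, but this scaling moved the median of all genes by -0.13 in males, -0.15 in females and -0.14 on average. On TMM library sizes none passed the FDR by edgeR. On average 2 of the 6 had an unadjusted p under 0.05, beside 2879 of all 16408 genes. By library totals edgeR called 3 of the 6 lower on average and 1 in females, and the counts of all genes called rose in both contrasts. Rpl22l1, the paralogue of Rpl22, was at -0.33 on average (FDR 0.112) and at -0.59 in females (FDR 0.100), where DESeq2 called 1 of the 6 lower. Rps27l, a paralogue of Rps27, was at -0.15 (FDR 0.141), and Rpl36al, a paralogue of Rpl36a, at -0.17 (FDR 0.288). Rpl10l, known from the testis, had 0 reads in all, and Rpl39l had 9.

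The genes that handle new Rpl3 protein were measured as well. Grwd1, the chaperone that binds Rpl3 as it is made, was at -0.17 averaged over the sexes (SE 0.0701, FDR 0.191, edgeR). Mettl18, the methyltransferase that modifies a histidine of Rpl3, was at -0.11 (SE 0.128, FDR 0.695). Neither passed the threshold.

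Among 38 tested assembly factors of the large subunit, 32 were below 0 averaged over the sexes and edgeR called 0 on TMM library sizes. DESeq2 called 1 and voom 1, beside 778 and 541 of all 16408 genes. At an unadjusted edgeR p under 0.05 there were 5 of the 38, beside 2879 of all genes. The 3 of smallest p were Rrs1, which brings the 5S ribonucleoprotein into the subunit (-0.31, FDR 0.0522), Nmd3, the export adaptor (-0.15, FDR 0.0828), and Eif6, which keeps the subunits apart (-0.20, FDR 0.114). The median of the 38 was -0.05, and without male sham 4 and female sham 7 it was -0.02, with 26 below 0. By library totals, which moved the median of all genes by -0.14, all 38 were below 0 and 9 were called lower. The count of all genes called rose with this scaling too, as given under the dependence on the processing.

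Of 24 genes of rRNA synthesis and growth control, edgeR called 0 in the SMC contrasts. At an unadjusted p under 0.05 there were 4 on average, 6 in males and 0 in females. Of all 16408 genes, 2879 had such a p on average, 1805 in males and 2049 in females. The 3 of smallest p on average were Polr1c (-0.21, FDR 0.149) and Polr1d (-0.11, FDR 0.180), subunits of RNA polymerases I and III, and Eif4ebp1, a translation repressor (-0.56, FDR 0.193). Between the sham sexes, Igf1, the insulin-like growth factor, was higher in males by 0.92 on the log2 scale (FDR 0.0395).

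Part of a list of muscle atrophy genes fell in the same contrast. Of its 12 genes all 12 were below 0 in each sex, with a median log2 difference of -0.67 on average beside -0.01 over all genes, and 6 fell past the FDR on average, beside 2.36% of all genes tested. They were the ubiquitin ligase gene Trim63 (-1.49, FDR 0.0215), the transcription factors Foxo1 (-1.08) and Foxo3 (-0.49), the cell cycle inhibitor Cdkn1a (-1.65), and the metallothioneins Mt1 (-1.21) and Mt2 (-1.90). Trim63 is the only protein breakdown enzyme among them, and the ubiquitin ligase genes Fbxo32 (-0.85, FDR 0.0690), Fbxo30 (-0.24) and Fbxo31 (-0.13) and the protease gene Ctsl (-0.28, FDR 0.0506) did not pass. Over the 24 libraries the mean of this list had r of 0.50 with Rpl3 and -0.34 with Rpl3l, and 0.14 and -0.02 on deviations from group means. Its part in the Rpl3 difference was not tested.

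Fibre and other cell markers were set beside the pair. For the slow fibre list (10 genes) and the fast fibre list (11 genes) edgeR called 0 in the SMC contrasts, with 0 at an unadjusted p under 0.05. Such a p was reached by 1805 of all 16408 genes in males, 2049 in females and 2879 on average. The mean of the fast fibre list had r of -0.57 with Rpl3 and 0.47 with Rpl3l on TMM library sizes, and that of the slow fibre list -0.18 and 0.10. The summed level of all 8 skeletal muscle fibre markers had r of -0.59 with Rpl3 and 0.33 with Rpl3l. It was 147100 to 296500 CPM in male sham, 268400 to 346400 in male SMC, 149400 to 389500 in female sham and 268500 to 345100 in female SMC. This sum was mostly Ttn (median 188200 CPM, beside 46230 for Myh4 and 21290 for Acta1). In males Ttn was at 0.47 with SMC (FDR 0.429, edgeR), and the 8 markers differed in sign, 5 above 0 and 3 below. In females all 8 were above 0.

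Fibroblast and tendon cell markers did not pass the FDR in any SMC contrast, and most were below 0 in females. All 5 fibroblast markers were below 0 there, with a median log2 difference of -0.62. Of these, 3 had an unadjusted p under 0.05, beside 2049 of all 16408 genes in females. They were Col1a2 (-0.91, FDR 0.146), Col1a1 (-0.88, FDR 0.277) and Col3a1 (-0.62, FDR 0.351), all collagen genes. In males 2 of the 5 were below 0, with a median of 0.05. Of 3 tendon cell markers, Tnmd was at -0.98 (FDR 0.387), Fmod at -0.77 (FDR 0.325) and Scx at 0.19 in females. The summed level of the tendon cell markers had r of 0.40 with Rpl3 and was 84.5 to 163.6 CPM in male sham, 81.2 to 177.4 in male SMC, 101.6 to 451.8 in female sham and 68.4 to 228.0 in female SMC. That sum was mostly Fmod (median 138.9 CPM, beside 3.33 for Scx and 2.44 for Tnmd). The summed level of all 5 fibroblast markers, with r of 0.43 to Rpl3, was 751.5 to 1371 CPM in male sham, 833.4 to 1345 in male SMC, 509.9 to 1761 in female sham and 595 to 925.1 in female SMC.

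The summed level of all 3 satellite cell markers, with r of 0.50 to Rpl3, was 11.3 to 17.7 CPM in male sham, 12.1 to 15.95 in male SMC, 12.5 to 21.9 in female sham and 11.9 to 16.8 in female SMC. The sum was mostly Chodl (median 9.57 CPM, beside 3.70 for Pax7 and 1.23 for Myf5), and its members differed in sign. In females Chodl was at -0.55 with SMC (FDR 0.146), Pax7 at 0.31 (FDR 0.606) and Myf5 at 0.40 (FDR 0.402). The summed level of 3 adipocyte markers, with r of -0.52 to Rpl3l, was 3.18 to 61.3 CPM in male sham, 5.41 to 31.6 in male SMC, 12.8 to 67.8 in female sham and 10.8 to 128.5 in female SMC. The ranges of the groups overlapped in each of these sums, and no marker of these lists was at 0 in every library. Their part in the levels of Rpl3 and Rpl3l was not tested.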

How the data were processed

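RNA of 24 gastrocnemius samples was analysed as the raw counts per Ensembl gene that the authors deposited, without normalization. The submitters' processing notes name cutadapt 1.16, STAR 2.7.9a, featureCounts 1.6, DESeq2 1.34.0 and the GRCm39 build. The annotation release, the strand setting and the handling of multiply mapped reads were not given in the sources used here. Reads of multiply mapped origin would lower or raise a ribosomal protein gene according to that setting.

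Labels of sex and treatment gave the 4 groups. Symbols (52083 of 55416 genes), lengths and coding sequences came from GENCODE M21 by gene identifier. That annotation is of another build, so no coordinates are given. Genes without a symbol held 0.361% of counts. Counts were filtered with filterByExpr, scaled by TMM and fitted with 1 mean per group in edgeR 4.0.16 (R 4.3.3), two-sided, with an FDR under 0.05. P-values measure the spread between these mice. Log2 CPM used a prior count of 2. Alternatives were DESeq2 1.42.0, RLE factors, library totals, other filters, fewer groups, limma 3.58.1 voomWithQualityWeights and libraries left out. The fit was checked on simulated counts. No library was a duplicate of another within its group (60 pairs, smallest chi-square per degree of freedom 10.7). Counting errors cover counting only.

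The pair, the gene lists and the alternatives were chosen with earlier results of these data known. From each list, genes past the FDR are named, otherwise at most 3 of smallest p. Of the small-subunit genes past the FDR only some are named, and the others are not reported here by name. From the likeness ranking, 5 genes of highest and 3 of lowest r are named. Values for Rps26, Rpl9, Rps27l, Rpl36al, Rpl22l1, Syngr1, Rplp0, Rplp1, Rpl13a, Rpl22, Fbxo32, Fbxo30, Fbxo31, Ctsl and the single markers were added after they were seen. No alternative was added.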

Additional observations from a re-analysis of the deposited data

How the results depend on the processing

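No paired analysis was possible because the groups share no replicate number. The averaged fall of Rpl3 (-0.30) had an FDR above 0.05 with no filter on low counts (-0.2957, FDR 0.0779), where more genes enter the adjustment, and in 17 of 24 fits that left out a library, with log2 changes from -0.3274 to -0.2594. Its other settings gave -0.45 to -0.27. With library totals alone, Rpl3l turned to -0.006913 in males, -0.08941 in females and -0.04816 on average, and r of the pair to 0.3196. The median of all genes then moved by -0.13 in males, -0.15 in females and -0.14 on average. Rpl3l in females ran from -0.006223 (without female sham 11) to 0.07153 when a library was left out, and between the sham sexes from -0.03178 to 0.04448, with values below 0 without male sham 3 (-0.02567), female sham 8 (-0.0005485), female sham 10 (-0.003618) and female sham 11 (-0.03178). The causes were not tested. All other values of the pair kept their sign and their side of the threshold.

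Counts of genes called moved more. In males 0 became 133 with DESeq2 and 93 with voom, and 0 to 78 with a library left out. In females 56 became 268 with DESeq2, 215 with library totals, 155 without male sham 4 and female sham 7, 37 with RLE factors, 16 with voom, 14 with the female libraries alone, and 0 to 147 with a library left out. On average 388 became 1861 with library totals, 778 with DESeq2, 189 with no filter, and 236 to 501 with a library left out. For the interaction 0 became 1 with DESeq2. Between the sham sexes 324 became 575 with DESeq2, 511 without male sham 4 and female sham 7, 179 with library totals, 58 with the sham libraries alone, and 187 to 487 with a library left out. On average 13 large-subunit and 12 small-subunit genes fell, which became 33 and 25 with library totals and 21 and 17 with DESeq2. In females 3 and 3 fell, which became 4 and 6 with DESeq2, 5 and 4 with library totals and 1 and 2 with voom. Assembly factors called lower on average went from 0 to 9, and paralogues from 0 to 3, with library totals. Rpl3, at 508 reads in its lowest library, is limited by the spread between mice more than by depth.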

Other observations

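Genes within or copied from Rpl3 had few reads. The small nucleolar RNA genes Snord43 and Snord83b, which lie inside Rpl3 on its strand, held 54 and 71 reads over the 24 libraries, and the pseudogenes Rpl3-ps1 and Rpl3-ps2 held 170 and 32. None of these passed the filter. With the pseudogene reads added to Rpl3, the log2 ratio of Rpl3l to Rpl3 was higher in SMC than in sham by 0.34 in males and 0.39 in females, beside 0.34 and 0.40 without them.

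Of the genes most opposite to Rpl3 over the libraries, Ston2 and Ankrd40 kept r of -0.62 and -0.49 with library totals alone, a scaling under which the median gene had r of 0.50 with Rpl3.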
